A study of Malus domestica with 15 samples.

Results

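PG1 is the polygalacturonase of ripening apple fruit. It was taken as the single locus of the table whose identifier contains the apple gene model MDP0000326734, and it is 1 of 80965 loci. The file lists it as the assembled locus CUFF.10846 with that 1 gene model and no other. The file gives no gene name or position for it, and the name PG1 was taken with the gene model rather than read from the data. The gene table of RefSeq for the apple assembly GDT2T_hap1 holds 1 gene with the symbol PG1 (synonyms MdPG and Pectinase). That table pairs none of the gene models of the file with a gene, so the name was not checked by sequence or position.

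RNA was measured in the skin of apples (Malus domestica) by RNA-seq in 15 samples, which form 5 groups of 3 biological replicates. The groups were untreated fruit at harvest, fruit treated with 1-methylcyclopropene (1-MCP, 0.7 µl/L final concentration) and held 2 months in cold storage, untreated control fruit held in the same way, and fruit of both treatments after 7 further days of shelf life. All stored groups had been in the cold, so its part and that of time cannot be told apart, and no 1-MCP fruit were sampled at harvest. The table holds 1 FPKM value per group (mapped fragments per transcript length and library size) and none per replicate, and the headers do not say that a value covers all 3 libraries. Library depth and the spread between replicates are unknown, so no SD, interval or test is given, and a difference of 1 log2 unit (a doubling of FPKM + 1) in log2(FPKM + 1) is used as a rule of size only. No marker gene of skin could be read, since the file names no gene, and in such bulk tissue fewer cells of a type and less RNA per cell cannot be told apart.

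Polygalacturonases cut the galacturonic acid chain of pectin, the polymer that holds neighbouring plant cells together, and their action goes with the softening of fruit flesh. In apple, PG1 is the family member best known from ripening, and apples in which it was suppressed stayed firmer. Its expression depends on ethylene, the gas that drives ripening in this fruit. Ethylene binds receptors that otherwise repress the response, and its binding lets transcription factors of the EIN3 family act. 1-MCP occupies the same receptors and keeps that repression in place. The groups therefore give the level of a known ethylene-dependent gene with and without 1-MCP treatment. The data used here hold no measure of ethylene, so whether its perception was still blocked at sampling was not tested.

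PG1 was low in stored 1-MCP fruit, abundant in stored control fruit and scarcely present at harvest. In 1-MCP fruit its level was 2.63 FPKM on leaving the cold (after the 2 months of storage) and 2.82 FPKM after shelf life. In untreated fruit it was 0.233 FPKM at harvest, 293 FPKM on leaving the cold and 706 FPKM after shelf life. The 3 low groups and the 2 high groups were separated by a wide gap, since the lowest control value of stored fruit was 104 times the highest value with 1-MCP.

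**Figure D1:**
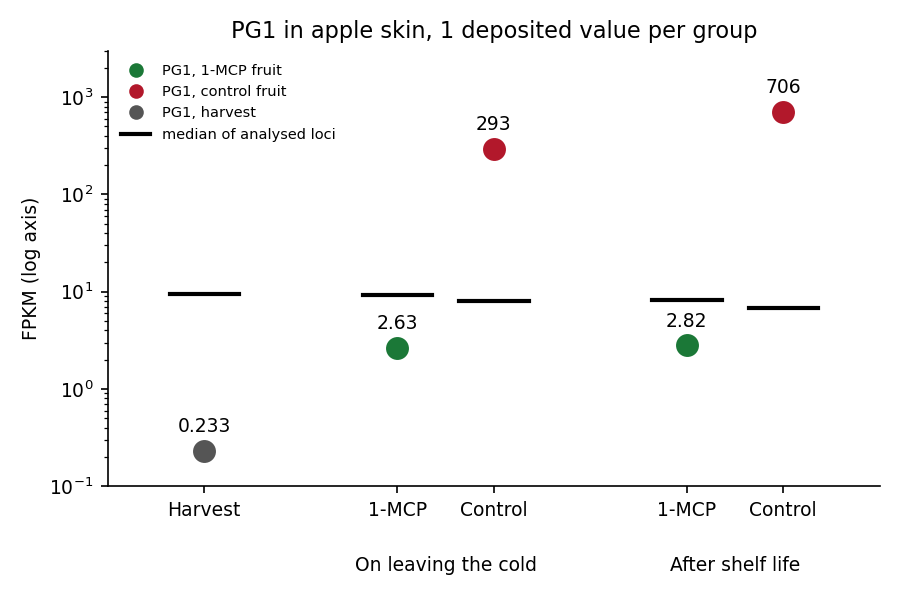
PG1 in each of the 5 groups, in FPKM on a log axis; each point is the 1 deposited value of a group, and each black bar is the median FPKM of the 42287 analysed loci in that group. PG1 lay below this median at harvest and in both 1-MCP groups, and above it in both control groups of stored fruit; over all 80965 loci, without a filter on low values, it exceeded 56.9% and 59.3% of loci in the 1-MCP groups.

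In falling order, the levels were those of control fruit after shelf life, control fruit on leaving the cold, 1-MCP fruit after shelf life, 1-MCP fruit on leaving the cold, and harvest. The steps between neighbours in this order, from the top, were 2.41-fold, 104-fold, 1.07-fold and 11.3-fold in FPKM. The smallest step is the one between the 1-MCP groups, and without replicates none of the steps can be set against a spread. The order held with 75th percentile scaling and with quantile normalization of the columns.

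To place these levels, PG1 was ranked within each column among the 42287 loci with a mean of at least 1 FPKM and no group listed at 0. PG1 passed this filter, with a mean carried almost wholly by the control groups of stored fruit. At harvest 99.5% of the loci were higher than PG1. With 1-MCP 81.6% were higher on leaving the cold and 77.2% after shelf life. In control skin 940 loci (2.22%) were higher on leaving the cold, and 366 loci (0.866%) after shelf life. These low places depend on the filter, which removes loci that are low in every group. Over all 80965 loci, PG1 exceeded 36.8% of them at harvest, and in 1-MCP fruit 56.9% on leaving the cold and 59.3% after shelf life. Relative to the median locus of the filtered set, it stood at 0.284 times with 1-MCP and 36.1 times in control fruit on leaving the cold, and at 0.340 times and 104 times in the same order after shelf life.

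The comparison of 1-MCP with control fruit asks how much of the PG1 transcript was present in fruit treated with this blocker of ethylene perception. On leaving the cold PG1 was at 2.63 FPKM with 1-MCP and 293 FPKM in control fruit, a log2 difference of -6.34. In FPKM this was 111-fold lower with 1-MCP. Of all analysed loci, 6.86% were lower with 1-MCP by at least 1 log2 unit, and 21 other loci were as far down as PG1 or further. After shelf life PG1 was at 2.82 FPKM with 1-MCP and 706 FPKM in control fruit, a log2 difference of -7.53. This was 250-fold lower in FPKM. By the log2 difference 23 other loci were as far down or further, and 7.35% were lower by at least 1 log2 unit. The 2 differences share no column of the table. The median locus was higher with 1-MCP, by 0.17 log2 units on leaving the cold and 0.28 after shelf life. Relative to that median the differences of PG1 were -6.51 and -7.81. The counts of 21 and 23 leave out loci listed at 0 in a group, and were not redone with those or with another pseudocount.

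Stored control fruit were set against harvest to follow PG1 in fruit that had not been treated with 1-MCP. On leaving the cold, control fruit were at 293 FPKM, against 0.233 FPKM at harvest, a log2 difference of 7.90. Only 5 of the other analysed loci had so large a positive difference, and 6.09% were higher by at least 1 log2 unit. After shelf life the value was 706 FPKM, against 0.233 FPKM at harvest, a log2 difference of 9.16. Again 5 other loci had as large a difference, in a comparison where 5.99% were higher by at least 1 log2 unit. The ratios in FPKM were 1257-fold and 3030-fold, and both rest on a harvest value below 1 FPKM whose precision is unknown. The pseudocount of 1 makes the log2 differences smaller than these ratios. The 2 comparisons use the same harvest value and are not independent of each other. Both counts of 5 leave out loci listed at 0 in a group, harvest included. They were not redone with those loci or with another pseudocount.

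In 1-MCP fruit PG1 was also higher than at harvest, at a far lower level. It was at 2.63 FPKM on leaving the cold, against 0.233 FPKM at harvest (log2 difference 1.56), and at 2.82 FPKM after shelf life, against the same harvest value (1.63). By the size rule PG1 counted as higher in both, as did 7.25% of all loci at the first time and 4.90% at the second. With a pseudocount of 5 the differences were 0.54 and 0.58, under the size rule. In FPKM, the excess over harvest in 1-MCP fruit was 0.820% of that in control fruit on leaving the cold and 0.367% after shelf life. The harvest fruit were untreated, so the treatment and the storage are joined in these values.

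**Figure D2:**
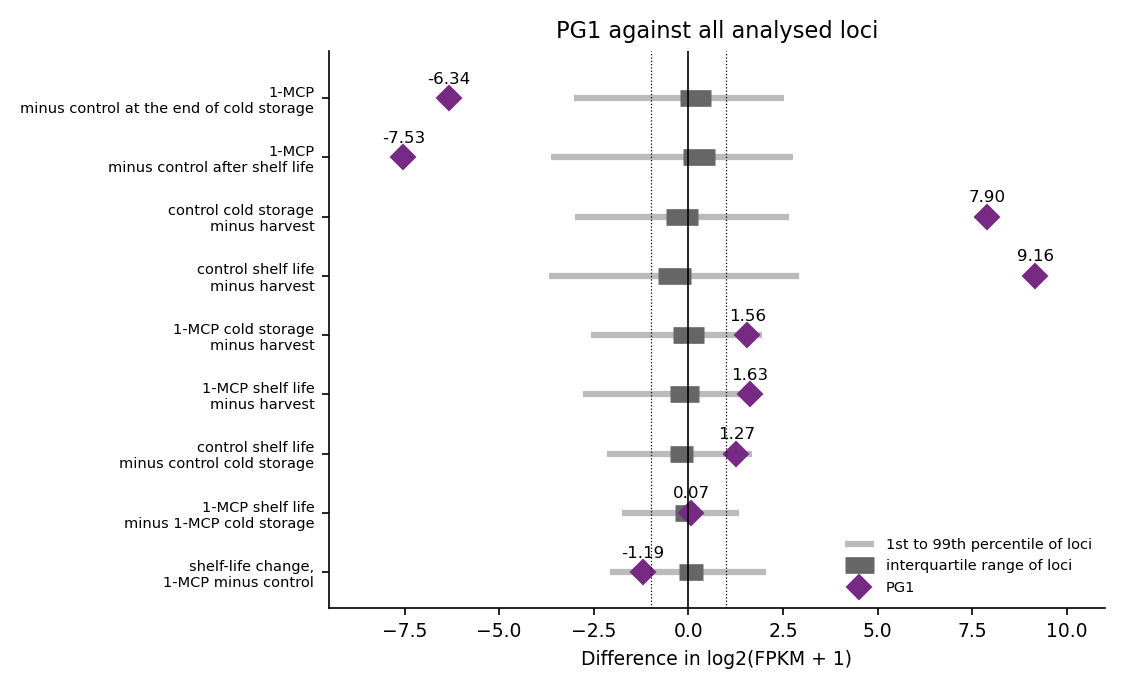
Difference in log2(FPKM + 1) for PG1 (diamonds, with values) in each of 9 comparisons, beside the interquartile range (dark bars) and the 1st to 99th percentile (grey bars) of the 42287 analysed loci; dotted lines mark 1 log2 unit. PG1 lay far outside the grey bars in the 4 comparisons that set stored control fruit against 1-MCP fruit or harvest, and inside them in the other 5.

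The 7 days of shelf life were examined within each treatment. In 1-MCP fruit PG1 was at 2.82 FPKM after shelf life and 2.63 FPKM on leaving the cold, a log2 difference of 0.07, which was under the size rule. Here 2.10% of loci were higher by at least 1 log2 unit. In control fruit PG1 was at 706 FPKM after shelf life and 293 FPKM on leaving the cold, 2.41-fold higher and a log2 difference of 1.27. That size was reached in the same direction by 907 other loci (2.14%), and 3.71% of loci were higher by at least 1 log2 unit. The median locus was lower after shelf life in both treatments, with a log2 difference of -0.12 in 1-MCP fruit and -0.19 in control fruit.

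The shelf-life change of PG1 was thus smaller in 1-MCP than in control fruit (difference of changes -1.19 log2 units). Differences of changes of at least 1 log2 unit in this direction were found at 5.51% of loci, and 1640 other loci (3.88%) had one as large as that of PG1. This difference was not tested, because each change rests on 1 value per group.

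Loci with a pattern like that of PG1 were sought by the root mean square (RMS) difference over the 5 groups between profiles of log2(FPKM + 1), each centred on its own mean. An RMS difference of 0 would mean the same changes in log2 units, whatever the level. PG1 itself had an SD over the 5 groups of 3.73 log2 units, against a median of 0.36 over all loci, and 9 loci had a larger one. Within an RMS difference of 1 log2 unit there were 24 other loci. Of these, 10 were assembled loci with a gene model, 10 were gene models without an assembled locus and 4 were assembled loci without a gene model. The share of each kind among all analysed loci was not computed, so this split only describes the 24 loci. The closest 6 are given by identifier. Neither the file nor the RefSeq table annotates them, so no function is given, and whether any is a copy of PG1 that shares its reads could not be checked.

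The closest was MDP0000211915, with an RMS difference of 0.425 and Pearson's r = 0.994 over the 5 groups. On leaving the cold it was at 1.66 FPKM with 1-MCP and 194 FPKM in control fruit, and after shelf life at 2.96 FPKM and 1019 FPKM in the same order of treatments, against 0.490 FPKM at harvest. It shared with PG1 the low harvest level and the low 1-MCP levels, but the shelf-life ratio in control fruit was 2.41 for PG1 and 5.25 for this locus.

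A pair of loci lay close to each other as well as to PG1. CUFF.48083 (MDP0000219062), with an RMS difference of 0.547 and r = 0.990, had 1.03 FPKM with 1-MCP and 292 FPKM in control fruit on leaving the cold, and 3.93 and 970 FPKM after shelf life. CUFF.15085 (MDP0000182342), with 0.548 and r = 0.989, had 0.894 and 229 FPKM at the first time and 3.00 and 778 FPKM at the second. Both were near 1 FPKM at harvest (1.06 and 1.01 FPKM), and unlike PG1 both were no higher with 1-MCP on leaving the cold than at harvest. In 1-MCP fruit the ratio of shelf life to cold storage was 1.07 for PG1, against 3.81 and 3.36 for these loci.

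The other three stood at higher levels. MDP0000279839 (RMS difference 0.562, r = 0.994) had 20.1 FPKM with 1-MCP and 4894 FPKM in control fruit after shelf life, and 3.87 FPKM at harvest. MDP0000152278 (0.531, r = 0.991) had 29.0 FPKM with 1-MCP and 2033 FPKM in control fruit after shelf life, and 6.69 FPKM at harvest. CUFF.25825 (MDP0000199152; 0.555, r = 0.989) had 27.8 FPKM with 1-MCP and 2085 FPKM in control fruit after shelf life, and 5.86 FPKM at harvest. The last pair differed from PG1 in control fruit, where their ratios of shelf life to cold storage were 0.892 and 0.773, so their highest value came on leaving the cold. Their difference of shelf-life changes between treatments was of the opposite sign, -1.19 log2 units for PG1 against 0.78 and 0.75 for these loci. These 6 loci were picked for their likeness, so their values are a description, and with 5 points a high r is easily reached. With a pseudocount of 0.1 or of 5, 3 of them were still among the closest 6, and 2 were when loci were ranked by r. Over 5 alternatives (2 pseudocounts, 2 scalings and r), MDP0000152278 stayed among the closest 6 in 1 and CUFF.25825 in 2. MDP0000211915 stayed in all 5 and the others in 3.

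**Figure D3:**
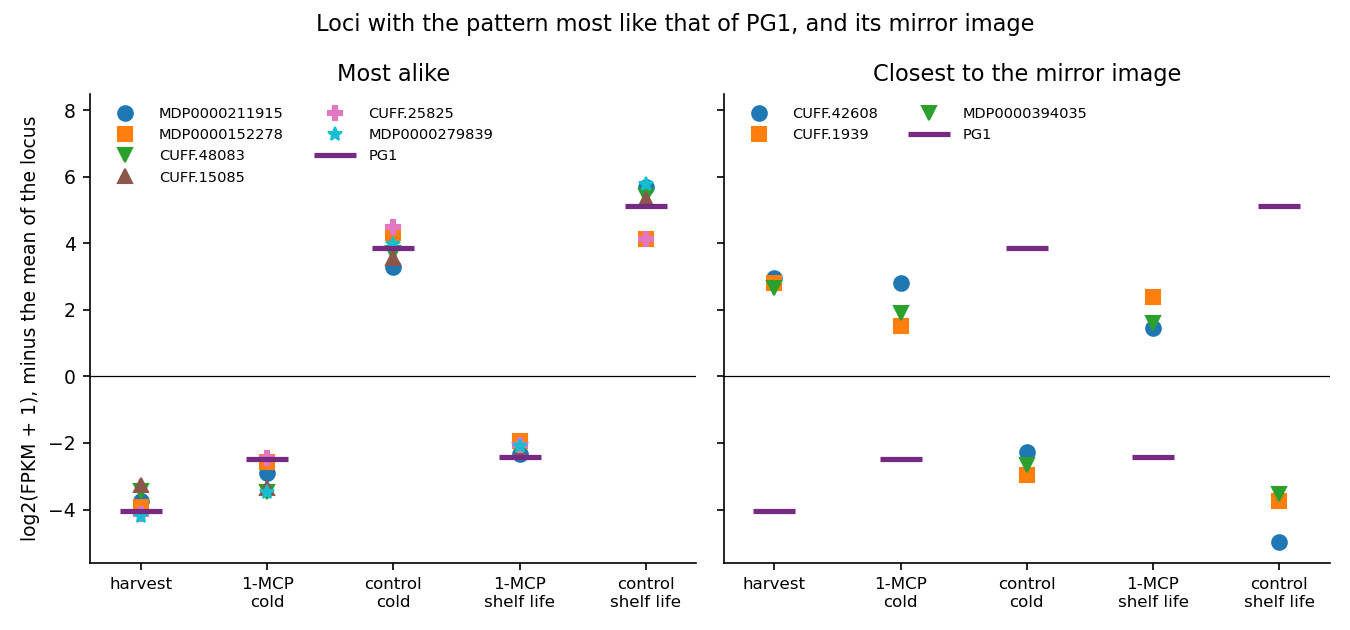
log2(FPKM + 1) minus the mean of the locus in each of the 5 groups, for the 6 loci most like PG1 (left) and the 3 closest to its mirror image (right), with PG1 as horizontal bars; each mark is 1 deposited value. The loci on the left are low and high in the same groups as PG1, though MDP0000152278 and CUFF.25825 lie below its bar in control fruit after shelf life. Those on the right are high where PG1 is low, at harvest and in 1-MCP fruit.

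The mirror image of the PG1 profile, high at harvest and with 1-MCP and low in stored control fruit, was matched less closely. Only 1 locus came within an RMS difference of 1 log2 unit of it. This was CUFF.42608 (MDP0000261585), at 0.972, which had 1133 FPKM with 1-MCP and 12.0 FPKM in control fruit after shelf life, and 3192 FPKM at harvest. The next, CUFF.1939, an assembled locus with no gene model, had 40.2 FPKM with 1-MCP and 0.873 FPKM in control fruit when the cold ended, and 99.7 FPKM at harvest (RMS difference 1.02). MDP0000394035 (1.17) had 94.0 FPKM with 1-MCP and 1.69 FPKM in control fruit after shelf life, and 196 FPKM at harvest. Its r with PG1 was -0.999, the most negative of the 3.

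**Figure D4:**
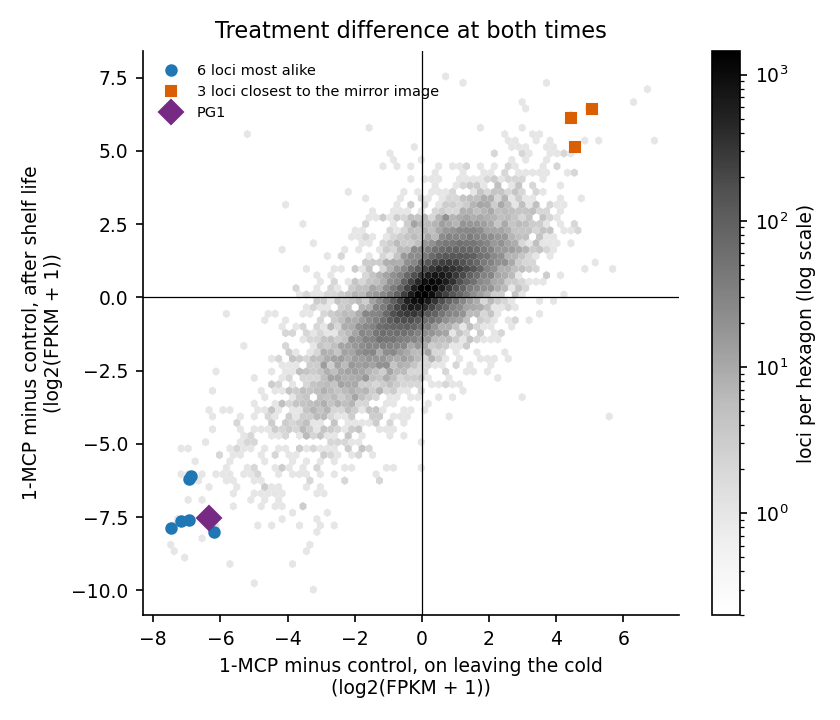
1-MCP minus control difference in log2(FPKM + 1) on leaving the cold (x axis) and after shelf life (y axis) for the 42287 analysed loci, shaded by the number of loci per hexagon on a log scale. PG1 (diamond, at -6.34 and -7.53) lies at the lower left end of the cloud with the 6 loci most like it, and the 3 loci closest to its mirror image lie at the upper right.

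The exact order of the 5 groups seen for PG1 was shared by 341 other loci of the 42287. With PG1 they made up 0.809% of the set. Loci in other orders were not counted, so this share does not show that the order is more or less common than another. This number depended on the scaling of the columns, and was 778 with 75th percentile scaling and 944 with quantile normalization, PG1 included in each. Most loci that shared the order of PG1 did not share its size, since 24 loci in all lay within an RMS difference of 1.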

How the data were processed

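Skin RNA of 15 samples in 5 groups of 3 was sequenced as non-directional TruSeq libraries on an Illumina HiSeq sequencer, per the labels' protocols. The deposited values are FPKM, 1 column per group with decimal commas, per the file headers. TopHat2, Cufflinks and Cuffdiff were used by the authors, per the submitters' processing notes. Their versions, the build, the annotation and any pooling or scaling: not given in the sources used here. Reads of antisense or near-identical genes cannot be told apart.

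From these values, log2(FPKM + 1) differences were computed for the 42287 loci with a mean of at least 1 FPKM, after 842 loci listed at 0 in a group were set apart (a 0 can be a failed estimate). Python 3.11.15 and pandas 2.3.3 were used, and the code was tested with known profiles, differences and column factors put into the real values. The gene, the comparisons and the rules were chosen with earlier results of these data known. Named loci were PG1, the 6 with the smallest RMS difference to its centred profile and the 3 closest to its mirror image. Alternatives were 4 scalings, pseudocounts of 0.1 and 5, other filters and Pearson's r. The planned limma fit needs values per library and was not run. The lists of ethylene and cell wall genes, and the promoter motifs, were not used here, because none of the 63541 gene models matched the RefSeq table (0 matches).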

Additional observations from a re-analysis of the deposited data

How the results depend on the processing

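No paired analysis was possible because replicates have no columns of their own, and for the same reason no replicate was left out. Of 54 values of PG1 under an alternative, 44 moved by less than 1.5-fold and kept their side of the size rule, among them all 36 under the 4 scalings, and 0 changed sign. A pseudocount of 5 gave -5.29 and -6.51 for 1-MCP minus control on leaving the cold and after shelf life, 5.83 and 7.09 for control fruit minus harvest at these times, and 0.54 and 0.58 for 1-MCP fruit minus harvest. A pseudocount of 0.1 gave 9.78 and 11.05 for control fruit and 3.04 and 3.13 for 1-MCP fruit minus harvest. By construction, the pseudocount weighs most on the low harvest value of PG1.

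Counts of loci past the size rule in the direction of PG1 are given in the order of the 9 comparisons in the plot of differences. With a pseudocount of 5 they were 1791, 1955, 1547, 1621, 1328, 926, 864, 461 and 1218, and with a rule of 2 log2 units 1088, 1298, 768, 894, 391, 240, 229, 130 and 453. With 75th percentile scaling 3842 loci were higher in shelf-life control fruit than at harvest. Those higher in 1-MCP fruit than at harvest numbered 2040 on leaving the cold with a mean of at least 5 FPKM, and 3181 after shelf life with a pseudocount of 0.1. The other 42 of 63 counts stayed within 1.5 times. Loci in the order of PG1 numbered 778 and 944 with 75th percentile scaling and quantile normalization. Of the 6 loci most like PG1, 3 were among the closest 6 with a pseudocount of 0.1, 3 with a pseudocount of 5 and 2 when ranked by Pearson's r. MDP0000211915 was in all 5 alternatives, CUFF.25825 in 2 and MDP0000152278 in 1. Over all 80965 loci, an alternative chosen after seeing the data, PG1 exceeded 36.8% of loci at harvest, 56.9% in 1-MCP fruit on leaving the cold and 59.3% after shelf life, because many loci are near 0. Depth is unknown, so the precision of the values below 1 FPKM cannot be given.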

Other observations

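The levels of 1 and 100 FPKM used here were chosen after the values were seen. Over the whole table, 12114 loci were listed above 0 in each group and below 1 FPKM at harvest, PG1 among them. On leaving the cold 0 of these (0%) reached 100 FPKM in 1-MCP fruit and 12 (0.0991%) did so in control fruit. PG1 was the most abundant of those 12. After shelf life 1 (0.00825%) reached 100 FPKM in 1-MCP fruit and 24 (0.198%) in control fruit, where PG1 ranked 2, behind MDP0000211915. The share of all loci at or above 100 FPKM in each column was not computed, so these counts only describe the 12114 loci. In control fruit 8 loci, with PG1, reached 100 FPKM at both times. In 1-MCP fruit these 8 had between 0.351 and 15.3 FPKM on leaving the cold (median 2.15 FPKM) and between 0.114 and 2.96 FPKM after shelf life (median 2.03 FPKM). PG1, at 2.63 and 2.82 FPKM, is 1 of these 8, so it lies within both ranges by construction. The 8 were picked by low harvest and high control values, which favours a contrast with 1-MCP fruit. Their values are therefore a description only.

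Ranked by Pearson's r over the 5 groups instead, among the 431 loci with an SD of at least 0.5 times that of PG1, the closest was CUFF.17952 (MDP0000839021, r = 0.998). It had 3.13 FPKM with 1-MCP and 63.2 FPKM in control fruit on leaving the cold, and 4.56 FPKM with 1-MCP and 138 FPKM in control fruit after shelf life, against 1.39 FPKM at harvest. Its differences were smaller than those of PG1 in log2 units, with an RMS difference of 1.41.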
